A study of Mus musculus with 8 samples.

Results

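The subject here is the genotype by injury interaction: how far the response of the liver to an acute toxic injury differed between mice without glutamine synthetase in myeloid cells and floxed mice that keep it. For each gene the interaction was the response of KO livers (injured minus H2O) minus the response of floxed livers (injured minus H2O), on log2(FPKM + 1). FPKM counts the sequenced fragments of a gene per kilobase of exon, scaled to the size of the library. A positive interaction means that the KO response lay above the floxed response, whether through a larger rise, a smaller fall or opposite directions. All 8 livers entered each interaction. Of the 55416 genes in the deposited table, 13708 had at least 1 FPKM in at least 2 of the 8 libraries and were tested.

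The 4 groups, of 2 libraries each, were KO mice (GlulΔlyz2) given LPS at 1 mg/kg with D-GalN at 200 mg/kg, KO mice given H2O, floxed mice (Glul flox/flox) given the same LPS and D-GalN, and floxed mice given H2O, all by intraperitoneal injection. In KO mice, as their name gives it, Cre made from the Lyz2 locus removes floxed Glul in macrophages, monocytes and neutrophils. Hepatocytes, which hold most glutamine synthetase of the liver, keep the gene, and bulk liver RNA was sequenced. No group analysed here carries the Cre without floxed Glul, so the Cre and the loss of Glul cannot be told apart. Whether both libraries of a group come from separate animals is not in the labels, so p-values measure the spread between these libraries only. No label gives age, sex or the time from injection to collection, and a shift in the timing of a response cannot be told apart from a change in its size.

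As background, lipopolysaccharide (LPS) is sensed by Toll-like receptor 4 on macrophages and endothelium and switches on NF-κB, chemokines and tumour necrosis factor. D-galactosamine (D-GalN) is taken up by hepatocytes, ties up their uridine nucleotides and blocks RNA synthesis, which sensitises them to killing by tumour necrosis factor. Hepatocytes that survive answer interleukin-6 with acute-phase proteins, and a rising secretory load engages the chaperones of the endoplasmic reticulum. Glutamine synthetase makes glutamine from glutamate and ammonia, and in macrophages its activity has been tied to the balance between inflammatory and reparative states.

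The libraries held between 18381669 and 24799144 fragments as recovered from the FPKM steps, so 1 fragment in a gene of 1 kb was worth 0.0403 to 0.0544 FPKM. Injured KO replicate 1 stood apart. Haemoglobin genes held 2.0% and 0.285% of fragments, taken as FPKM times exon length, in injured KO livers and 0.0108% and 0.0155% in H2O KO livers, against 0.00447% and 0.00443% in injured floxed livers and 0.0228% and 0.0165% in H2O floxed livers. Mitochondrially encoded genes held 10.4% and 12.6% in injured KO and 22.6% and 13.5% in H2O KO livers, against 6.99% and 6.94% in injured floxed and 15.4% and 12.5% in H2O floxed livers. Without injured KO replicate 1, 3765 genes were called, 2268 of them positive. The 5 hepatocyte markers summed to 38450 and 37670 FPKM in injured KO and 27040 and 37780 FPKM in H2O KO livers, against 26680 and 27430 FPKM in injured floxed and 36050 and 36620 FPKM in H2O floxed livers, so the libraries were liver by these genes. The part of blood content, mitochondrial share and depth in the results below was not tested.

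Glul itself, the targeted gene, had 74.6 and 90.1 FPKM in injured KO and 89.8 and 134 FPKM in H2O KO livers, against 358 and 237 FPKM in injured floxed and 107 and 106 FPKM in H2O floxed livers. Its level was highest in injured floxed livers, and the range of H2O KO livers overlapped those of injured KO and H2O floxed livers. The interaction was -1.86 ± 0.39 (log2, SE; limma, adjusted p = 0.0096): Glul rose by 1.44 in floxed livers, and the KO response of -0.42 was not called (adjusted p = 0.214). In H2O livers the KO values of 89.8 and 134 FPKM and the floxed values of 107 and 106 FPKM overlapped, so bulk Glul in H2O livers does not check the genotype labels. Lyz2, the lysozyme gene that carries the Cre, had 39.9 and 32.6 FPKM in injured KO and 5.27 and 9.92 FPKM in H2O KO livers, against 15.9 and 24.5 FPKM in injured floxed and 33.7 and 72.4 FPKM in H2O floxed livers. Its interaction was 3.45 ± 0.57 (adjusted p = 0.00452), with the lowest values in H2O KO livers. Since the KO changes the Lyz2 locus, its level is not independent of the genotype.

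Across the transcriptome, 4940 of 13708 genes (36.0%) had an interaction at an adjusted p of 0.05 or less by limma, 2871 (20.9%) positive and 2069 (15.1%) negative. Of the tested genes, 750 passed the filter only through injured KO livers, 514 of them called positive, and 281 only through injured floxed livers, 110 of them called negative, so these calls follow in part from the filter. The same holds for list members given below as tested only through injured livers of 1 genotype. It also holds for the list counts and medians that include them. The smallest called interaction was 0.49 on the log2 scale, 580 calls lay above 2 and 150 below -2. The median over all tested genes was 0.03, with a median response of -0.28 in KO livers and -0.28 in floxed livers. At the other end, 4745 genes (34.6%) had a 95% interval that lay wholly between -1 and 1. The count of calls was 2997 (1867 positive, 1130 negative) without injured floxed replicate 1 and 3263 (1148 negative) without H2O floxed replicate 1. The negative calls numbered 1320 without injured floxed replicate 2 and 1301 without H2O floxed replicate 2. With all libraries set to 1 common distribution, 2452 calls were positive and 2647 negative, which turns the balance of directions round.

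**Figure D1:**
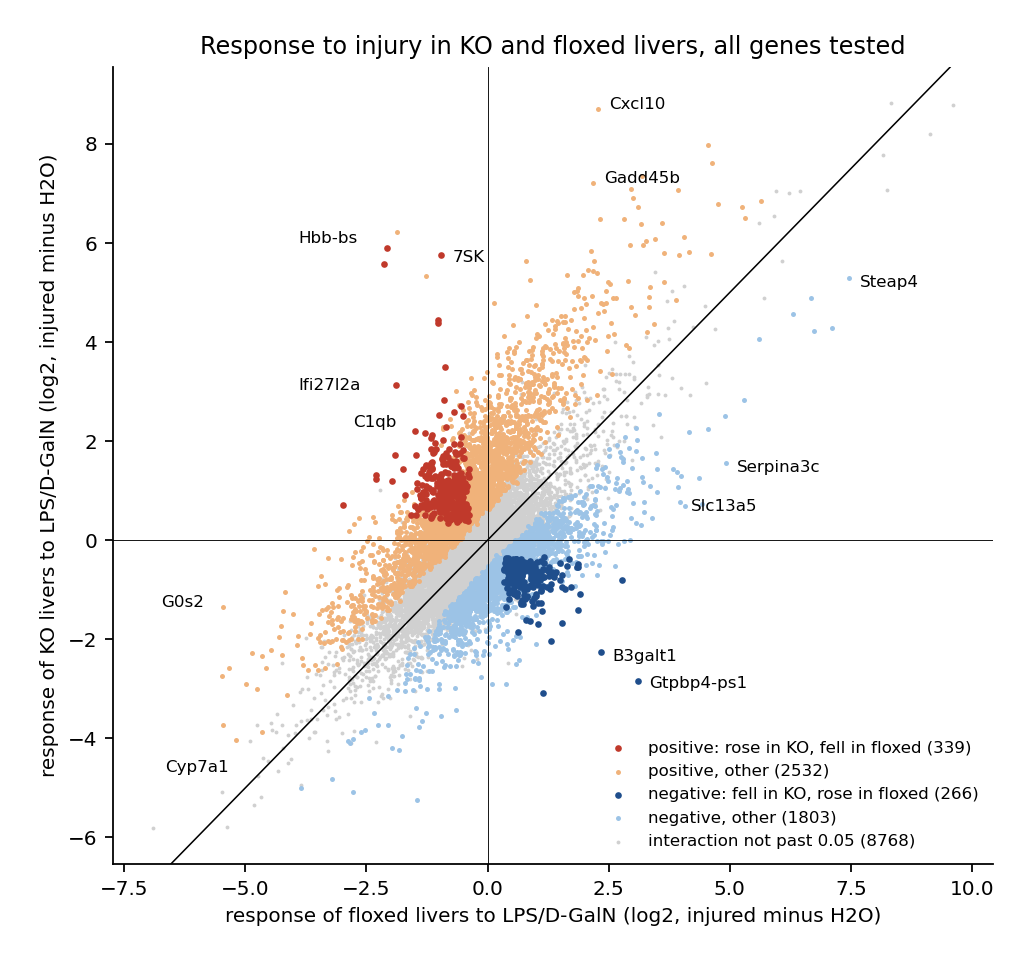
The response of each tested gene in KO livers (injured minus H2O) is plotted against its response in floxed livers, both on log2(FPKM + 1), with genes coloured by the interaction call. Genes off the diagonal are those whose response differed, and the 339 and 266 genes called in opposite directions lie in the corners where the signs differ.

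The calls fell into classes by the response of each genotype. In KO livers 3062 genes (22.3%) rose and 5577 (40.7%) fell after injury, and in floxed livers 2537 (18.5%) rose and 5324 (38.8%) fell. Of the 2871 positive interactions, 402 rose in both genotypes and more in KO livers, 1080 had a called rise in KO livers alone, 339 (2.47% of all tested genes) rose in KO livers and fell in floxed livers, 711 had a called fall in floxed livers alone, 302 fell in both and less in KO livers, and 37 were called in neither genotype. Of the 2069 negative interactions, 276 fell in both genotypes and more in KO livers, 788 had a called fall in KO livers alone, 266 (1.94%) fell in KO livers and rose in floxed livers, 595 had a called rise in floxed livers alone, 108 rose in both and less in KO livers, and 36 were called in neither. Without injured floxed replicate 1 the opposite classes held 136 and 127 genes, without H2O floxed replicate 1 204 and 129, and without H2O floxed replicate 2 173 and 161, with KO up given before KO down. The class with KO down held 166 without injured floxed replicate 2 and 175 without H2O KO replicate 2. A missing call in a genotype does not show that the gene stayed still there. For each genotype a response can be formed from each pairing of an injured with an H2O library, and the ranges of these responses were apart between genotypes for each of the 4940 called genes and for 8288 of all tested genes (60.5%).

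Most of the genes that differed between genotypes did so in injured livers. Injured KO against injured floxed livers gave 7192 called genes (52.5%), and H2O KO against H2O floxed livers gave 1 (0.0073%), Oas2, with 780 genes at an unadjusted p under 0.05 by limma and 14 called by limma with voom on the recovered fragments. The interaction equals the KO minus floxed difference under injury minus that under H2O. How these differences lie in genes chosen by their interaction therefore follows in part from that choice. For the genes with a positive interaction, the median KO minus floxed difference was 1.17 under injury and -0.18 under H2O, and for those with a negative interaction it was -1.05 under injury and -0.03 under H2O. Over all tested genes it was -0.04 under injury and -0.09 under H2O. The H2O difference was the larger in size for 112 positive (3.9%) and 22 negative (1.06%) interactions, and for 2288 of all tested genes (16.7%).

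Genes with the largest responses among those that rose in KO livers and fell in floxed livers included haemoglobins, macrophage genes and interferon-induced genes. Hbb-bs, an adult beta globin, had 15830 and 2499 FPKM in injured KO and 83.3 and 129 FPKM in H2O KO livers, against 40.2 and 37.9 FPKM in injured floxed and 189 and 148 FPKM in H2O floxed livers. Injured KO replicate 1 lay far above replicate 2, and haemoglobin genes share reads with near-identical copies. The interactions were 7.98 ± 1.02 for Hbb-bs (adjusted p = 0.00209) and 7.71 ± 1.09 for the alpha globin Hba-a1 (adjusted p = 0.00275). Ifi27l2a, an interferon-induced mitochondrial protein, had 62.2 and 49.5 FPKM in injured KO and 5.16 and 5.76 FPKM in H2O KO livers, against 7.53 and 5.31 FPKM in injured floxed and 19.9 and 34.1 FPKM in H2O floxed livers. Injured KO livers were the highest and H2O floxed livers the next, with no overlap, while H2O KO and injured floxed livers shared 1 range. Its interaction was 5.01 ± 0.39 (adjusted p = 0.000661), from 3.13 in KO livers and -1.89 in floxed livers. Enho, which encodes the hepatic peptide hormone adropin, had 22.5 and 17.4 FPKM in injured KO and 4.17 and 6.69 FPKM in H2O KO livers, against 1.41 and 1.37 FPKM in injured floxed and 7.26 and 8.74 FPKM in H2O floxed livers. It reached an interaction of 3.63 ± 0.31 (adjusted p = 0.000748), with H2O livers of both genotypes between the injured groups.

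Macrophage genes in this class included C1qb, a chain of the complement starter C1q, with 122 and 68.8 FPKM in injured KO and 16.5 and 22.1 FPKM in H2O KO livers, against 15.1 and 20.1 FPKM in injured floxed and 40.1 and 64.4 FPKM in H2O floxed livers. Its interaction was 3.69 ± 0.48 (adjusted p = 0.00216), with a KO minus floxed difference of 2.33 under injury and -1.36 under H2O. In bulk tissue, fewer cells of a type and less RNA per cell cannot be told apart. Fcna, a ficolin of resident macrophages, had an interaction of 3.17 ± 0.43 (adjusted p = 0.00244), with 73.5 and 40.02 FPKM in injured KO livers against 6.34 and 9.69 FPKM in injured floxed livers. Ifi30, the lysosomal thiol reductase of antigen processing, had 2.73 ± 0.37 (adjusted p = 0.0024). Mndal, an interferon-inducible DNA-binding protein, had 2.75 ± 0.36 (adjusted p = 0.00217). Myl9, a myosin light chain of smooth muscle and platelets, had 13.98 and 4.89 FPKM in injured KO and 1.9 and 1.78 FPKM in H2O KO livers, against 0.265 and 0.438 FPKM in injured floxed and 2.59 and 2.98 FPKM in H2O floxed livers, and an interaction of 3.21 ± 0.52 (adjusted p = 0.00412). Ccn1, a matricellular protein induced by YAP and serum response factor, had 163 and 82.6 FPKM in injured KO and 5.57 and 3.75 FPKM in H2O KO livers, against 2.28 and 2.23 FPKM in injured floxed and 4.01 and 7.8 FPKM in H2O floxed livers. Injured KO livers lay far above all others, and the interaction was 5.42 ± 0.52 (adjusted p = 0.00106).

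**Figure D2:**
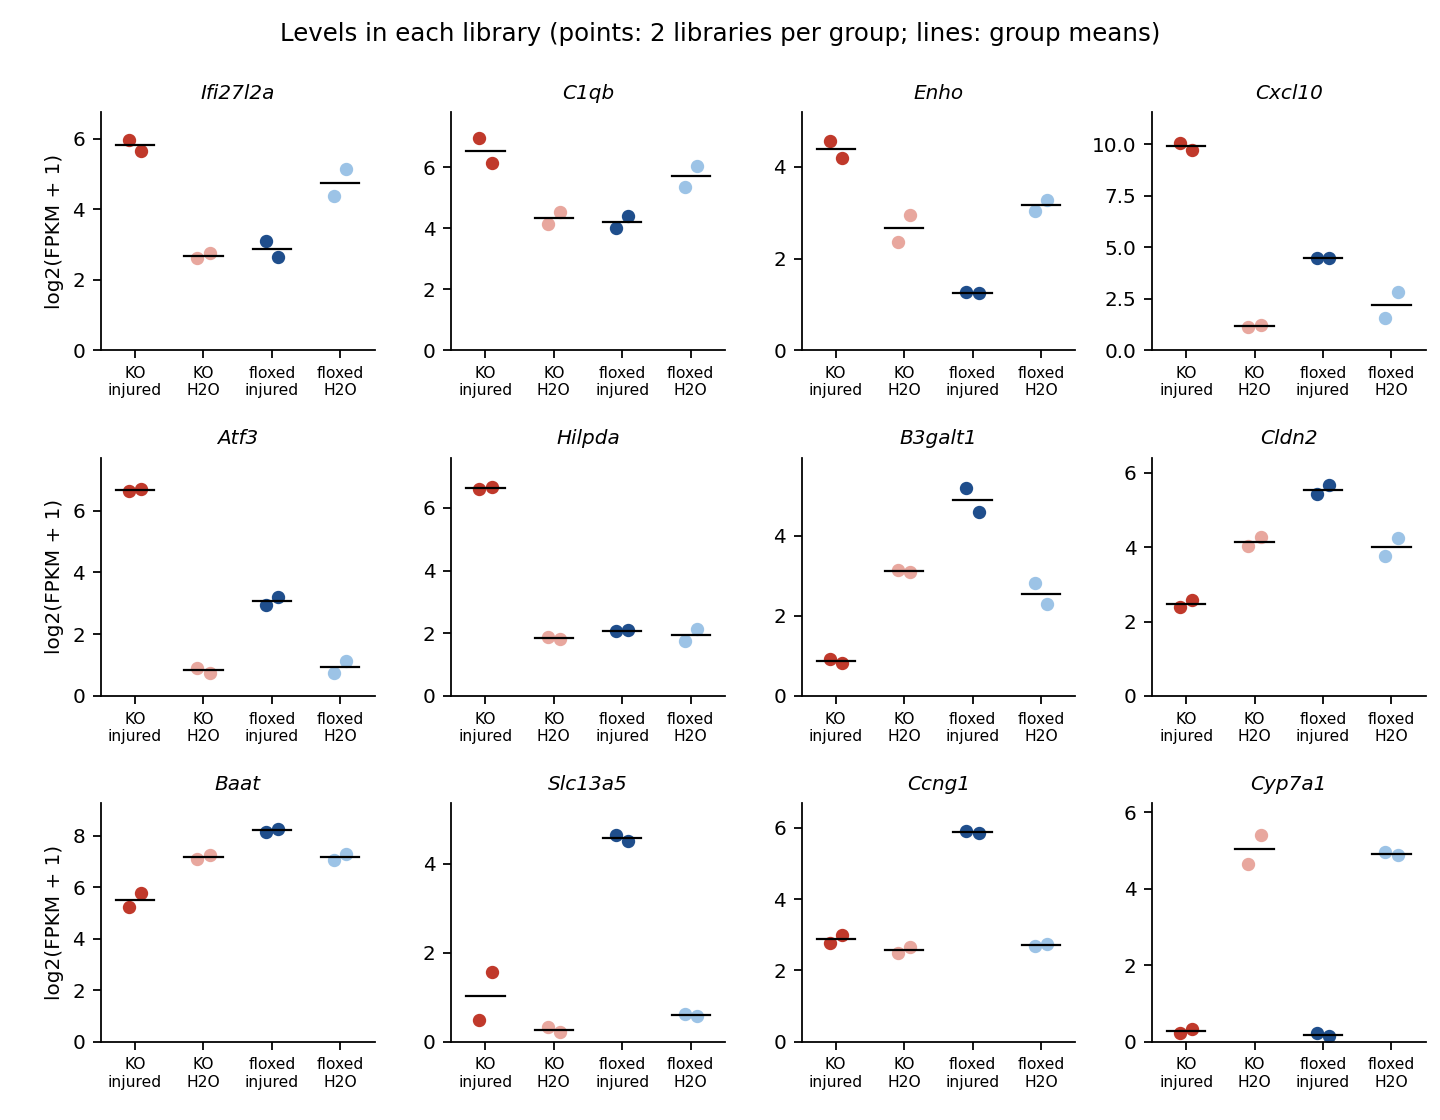
Level as log2(FPKM + 1) in each of the 8 libraries for 12 genes, with injured KO, H2O KO, injured floxed and H2O floxed livers from left to right, 2 points per group and a line at the group mean. Ifi27l2a, C1qb, Enho, Cxcl10, Atf3 and Hilpda are highest in injured KO livers, B3galt1, Cldn2, Baat, Slc13a5 and Ccng1 are highest in injured floxed livers, and Cyp7a1 is low in both injured groups.

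Genes that fell in KO livers and rose in floxed livers included enzymes and junction proteins of hepatocytes. B3galt1, a galactosyltransferase, had 0.89 and 0.767 FPKM in injured KO and 7.9 and 7.55 FPKM in H2O KO livers, against 35.7 and 23.4 FPKM in injured floxed and 6.09 and 3.9 FPKM in H2O floxed livers. The injured floxed values were the highest and the injured KO values the lowest, with both H2O groups between them, and the interaction was -4.60 ± 0.34 (adjusted p = 0.000661). Cldn2, a pore-forming claudin of tight junctions, had 4.21 and 4.97 FPKM in injured KO and 15.3 and 18.2 FPKM in H2O KO livers, against 42.0 and 49.4 FPKM in injured floxed and 12.5 and 17.8 FPKM in H2O floxed livers. Its response was -1.67 in KO livers and 1.55 in floxed livers (interaction -3.21 ± 0.29, adjusted p = 0.000877). Baat, which joins bile acids to taurine or glycine, had 36.4 and 52.9 FPKM in injured KO and 135 and 152 FPKM in H2O KO livers, against 284 and 306 FPKM in injured floxed and 132 and 157 FPKM in H2O floxed livers. H2O livers of both genotypes shared 1 range, injured KO livers lay below it and injured floxed livers above it, for an interaction of -2.72 ± 0.32 (adjusted p = 0.00166).

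Others of this class were Tspyl2, a nucleosome assembly protein, at -3.01 ± 0.32 (adjusted p = 0.0013), Aaas, a nuclear pore protein, at -2.14 ± 0.20 (adjusted p = 0.000986), and Itih3, a hyaluronan-binding plasma protein, at -2.12 ± 0.41 (adjusted p = 0.00732). The pseudogene Gtpbp4-ps1, which may share reads with its parent gene, had -5.95 ± 0.61 (adjusted p = 0.00126). Mir199a-1, a miRNA hairpin gene, had -3.33 ± 0.38 (adjusted p = 0.00159), and a library of this kind does not measure the mature miRNA. Rnf103, a ubiquitin ligase of the endoplasmic reticulum, had 4.87 and 10.1 FPKM in injured KO and 14.4 and 11.9 FPKM in H2O KO livers, against 103 and 97.1 FPKM in injured floxed and 16.0 and 11.6 FPKM in H2O floxed livers. Injured floxed livers stood far above the rest, and the interaction was -3.59 ± 0.43 (adjusted p = 0.00176).

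Cytokines and chemokines, the signals that call in leukocytes, mostly had a higher response in KO livers. Of 23 innate cytokines 15 were tested, 5 of them only through injured KO livers. A positive interaction was called for 14, these 5 among them, and the list median was 1.92. Tnf, the cytokine that kills sensitised hepatocytes, had 19.9 and 15.9 FPKM in injured KO and 0.372 and 0.199 FPKM in H2O KO livers, against 4.44 and 5.67 FPKM in injured floxed and 0.574 and 0.547 FPKM in H2O floxed livers. The injured KO values were the highest and the injured floxed values the next, and the interaction was 1.92 ± 0.23 (adjusted p = 0.0018). Il6, the inducer of acute-phase proteins, was tested only through injured KO livers and had 8.79 and 4.95 FPKM in injured KO and 0.0579 and 0 FPKM in H2O KO livers, against 0.886 and 0.926 FPKM in injured floxed and 0.116 and 0.0352 FPKM in H2O floxed livers, and an interaction of 2.06 ± 0.32 (adjusted p = 0.00349). Il33, an alarmin released by dying cells, rose in both genotypes and less in KO livers, with 3.69 and 3.63 FPKM in injured KO and 0.422 and 0.339 FPKM in H2O KO livers, against 12.1 and 15.6 FPKM in injured floxed and 0.391 and 0.251 FPKM in H2O floxed livers. Its interaction was -1.72 ± 0.21 (adjusted p = 0.00189), the single negative call of the list. Of 22 listed subunits, inhibitors and targets of NF-κB, 21 were tested, 1 of them only through injured KO livers, and 13 were positive and none negative. Il1b, the inflammasome cytokine, had 155 and 86.2 FPKM in injured KO and 3.56 and 0.599 FPKM in H2O KO livers, against 9.83 and 15.7 FPKM in injured floxed and 2.29 and 1.66 FPKM in H2O floxed livers (interaction 3.25 ± 0.70, adjusted p = 0.0108).

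Of 31 chemokines, 27 were tested, 7 of them only through injured KO livers. A positive interaction was called for 22, these 7 among them, and a negative one for 0. The list median was 1.80 on the log2 scale. Without the filter on low values, 14 were positive. Cxcl10, which draws T cells and monocytes through Cxcr3, had 1073 and 847 FPKM in injured KO and 1.21 and 1.38 FPKM in H2O KO livers, against 21.5 and 21.1 FPKM in injured floxed and 1.98 and 6.06 FPKM in H2O floxed livers. The 2 injured KO values were more than an order of magnitude above the injured floxed ones, and the interaction was 6.42 ± 0.51 (adjusted p = 0.000661). Ccl2, which draws monocytes, had 327 and 209 FPKM in injured KO and 0.535 and 0.669 FPKM in H2O KO livers, against 15.5 and 16.4 FPKM in injured floxed and 0.703 and 1.05 FPKM in H2O floxed livers. It rose in both genotypes and more in KO livers, with an interaction of 4.18 ± 0.31 (adjusted p = 0.000661). Cxcl2, which draws neutrophils, had 284 and 93.1 FPKM in injured KO and 0.272 and 0.132 FPKM in H2O KO livers, against 7.85 and 8.1 FPKM in injured floxed and 0.137 and 0.165 FPKM in H2O floxed livers, and an interaction of 4.13 ± 0.60 (adjusted p = 0.003). Cxcl1, Cxcl12, Cxcl14, Ccl25 and Ccl27a were not called.

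To show what lies in front of these genes, promoters were searched on both strands for the κB motif, the binding sequence of NF-κB, in the 250 bases before the start. The motif was held by 5 of 18 chemokine promoters (27.8%), by 10.5% of the 9256 tested genes with a promoter in the table and by 7.25% of all 32851 windows. The 2 shown are those of the chemokines Cxcl10 (chr5:92348890-92349089, minus strand) and Cxcl2 (chr5:90903699-90903898, plus strand), from RefSeq on GRCm38.p6, 5′ to 3′ along the gene up to its start, with the κB matches in capitals. A match is a description of letters and not evidence of binding.
Cxcl10: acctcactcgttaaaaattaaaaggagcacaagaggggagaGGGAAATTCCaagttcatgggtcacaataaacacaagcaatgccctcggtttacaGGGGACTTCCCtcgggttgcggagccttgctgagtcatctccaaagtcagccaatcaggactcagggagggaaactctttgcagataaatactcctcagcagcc
Cxcl2: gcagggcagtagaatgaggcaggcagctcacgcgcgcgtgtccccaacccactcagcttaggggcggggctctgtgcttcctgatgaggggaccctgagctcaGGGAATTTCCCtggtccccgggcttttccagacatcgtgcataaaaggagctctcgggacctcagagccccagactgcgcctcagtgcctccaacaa

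Immediate early genes, the transcription factors and phosphatases that are switched on within minutes of a stimulus without new protein synthesis, mostly had a higher response in KO livers. Of 24 tested of 28, 22 were positive and 0 negative, and the median was 2.34. Only through injured KO livers were 5 tested, all 5 of them positive. All 24 rose in KO livers and 13 rose in floxed livers. Atf3, a stress-induced transcription factor, had 97.9 and 104 FPKM in injured KO and 0.871 and 0.682 FPKM in H2O KO livers, against 6.76 and 8.15 FPKM in injured floxed and 0.677 and 1.17 FPKM in H2O floxed livers. The interaction was 3.70 ± 0.24 (adjusted p = 0.000613). Fos, a subunit of AP-1, had 46.8 and 22.0 FPKM in injured KO and 1.38 and 0.509 FPKM in H2O KO livers, against 1.42 and 1.14 FPKM in injured floxed and 0.92 and 0.69 FPKM in H2O floxed livers, and its floxed response of 0.34 was not called. Gadd45b, a stress sensor induced by NF-κB and outside the list, had 333 and 169 FPKM in injured KO and 0.679 and 0.548 FPKM in H2O KO livers, against 10.1 and 10.97 FPKM in injured floxed and 1.63 and 1.48 FPKM in H2O floxed livers, and an interaction of 5.03 ± 0.40 (adjusted p = 0.000661). Dusp5, a phosphatase that turns off ERK in the nucleus and was tested only through injured KO livers, had 15.02 and 19.2 FPKM in injured KO and 0.208 and 0.242 FPKM in H2O KO livers, against 1.28 and 0.703 FPKM in injured floxed and 0.266 and 0.673 FPKM in H2O floxed livers. The injured KO values lay far above the rest, for an interaction of 3.44 ± 0.29 (adjusted p = 0.000748). Egr1 and Btg2 of this list were not called.

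The CArG box, the binding sequence of serum response factor, was searched in the same way. It was held by 3 of 19 immediate early promoters in the table (15.8%), against 1.39% of the tested genes and 1.47% of all windows. The promoters of Dusp5 (chr19:53528945-53529144, plus strand) and the zinc finger factor Egr2 (chr10:67537366-67537565, plus strand) are shown from RefSeq on GRCm38.p6, with the CArG boxes in capitals.
Dusp5: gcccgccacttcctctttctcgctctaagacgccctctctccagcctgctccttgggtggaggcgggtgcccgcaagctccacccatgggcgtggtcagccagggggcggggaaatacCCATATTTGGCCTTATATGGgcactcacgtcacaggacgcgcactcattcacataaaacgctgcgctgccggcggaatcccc
Egr2: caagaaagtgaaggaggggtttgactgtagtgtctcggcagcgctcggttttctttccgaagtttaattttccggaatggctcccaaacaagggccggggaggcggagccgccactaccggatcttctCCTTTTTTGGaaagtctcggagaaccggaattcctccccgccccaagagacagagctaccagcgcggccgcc

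Among other genes with a rise that was larger in KO livers, or called there alone, Hilpda, which inhibits fat breakdown and is induced by hypoxia, had 95.9 and 100.4 FPKM in injured KO and 2.68 and 2.52 FPKM in H2O KO livers, against 3.16 and 3.35 FPKM in injured floxed and 2.35 and 3.44 FPKM in H2O floxed livers. Its 2 injured KO values were far above the 6 others, which shared 1 range, and the interaction was 4.64 ± 0.23 (adjusted p = 0.000464). Apold1, an early response gene of endothelium tested only through injured KO livers, had an interaction of 3.83 ± 0.53 (adjusted p = 0.00255). Nr1d1, a repressor of the circadian clock, had 55.9 and 68.0 FPKM in injured KO and 3.82 and 3.54 FPKM in H2O KO livers, against 4.73 and 5.95 FPKM in injured floxed and 2.64 and 2.08 FPKM in H2O floxed livers, and an interaction of 2.83 ± 0.24 (adjusted p = 0.000779), with a called rise in both genotypes. In the list of glycolysis and hypoxia, 14 of 23 tested genes were positive and 0 negative, 5 being tested only through injured KO livers. Its member Slc2a1, the glucose transporter of most non-hepatic cells, had 35.0 and 22.0 FPKM in injured KO and 3.25 and 3.75 FPKM in H2O KO livers, against 3.65 and 4.73 FPKM in injured floxed and 2.37 and 2.98 FPKM in H2O floxed livers (interaction 2.19 ± 0.33, adjusted p = 0.00316). Hif1a, the hypoxia factor itself, had an interaction of 0.12 ± 0.32 (adjusted p = 0.795; 95% interval -0.63 to 0.87) and rose in both genotypes.

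Interferon-stimulated genes rose widely in both genotypes. Of 28 tested, 19 had a positive and 0 a negative interaction, all 28 rose in KO livers, and 23 rose and 1 fell in floxed livers. The positive calls numbered 14 without the filter on low values and 14 with quantile normalisation. The median KO minus floxed difference was 0.41 under injury and -0.86 under H2O. For the cytokines this median was 1.85 under injury and -0.04 under H2O. Oas2, a sensor of double-stranded RNA, had 29.4 and 26.4 FPKM in injured KO and 4.03 and 4.08 FPKM in H2O KO livers, against 10.2 and 10.8 FPKM in injured floxed and 15.6 and 14.9 FPKM in H2O floxed livers. H2O KO livers were the lowest, injured floxed livers lay below H2O floxed livers, and the interaction was 3.02 ± 0.19 (adjusted p = 0.000613). Irf7, the factor that amplifies type I interferon, had 169 and 159 FPKM in injured KO and 10.6 and 10.6 FPKM in H2O KO livers, against 51.9 and 68.7 FPKM in injured floxed and 28.5 and 57.2 FPKM in H2O floxed livers, and an interaction of 3.28 ± 0.44 (adjusted p = 0.00228). Mx1, an antiviral GTPase, had 2.93 ± 0.35 (adjusted p = 0.00173). Ifit2, of the same list, rose in both genotypes, with an interaction of 0.22 ± 0.33 (adjusted p = 0.621; 95% interval -0.53 to 0.98).

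Hepatic acute-phase proteins mostly rose in both genotypes, and their called interactions were mostly negative. All 28 listed were tested, and 2 (Il1rn and Cebpd, 7.14%) were positive and 13 (46.4%) negative, beside 20.9% and 15.1% over all tested genes. The median interaction was -1.14, with a median response of 2.05 in KO livers and 3.37 in floxed livers. The negative calls numbered 8 without injured floxed replicate 2, without H2O floxed replicate 1 or without H2O floxed replicate 2, and 6 without the filter on low values. Crp, a pentraxin, had 129.5 and 132 FPKM in injured KO and 49.6 and 63.4 FPKM in H2O KO livers, against 348 and 329.5 FPKM in injured floxed and 54.8 and 65.3 FPKM in H2O floxed livers. Injured floxed livers were the highest and injured KO livers the next, for an interaction of -1.28 ± 0.27 (adjusted p = 0.0106). Saa1, a serum amyloid A, had 927 and 1506 FPKM in injured KO and 6.26 and 9.73 FPKM in H2O KO livers, against 2026 and 2423 FPKM in injured floxed and 7.93 and 4.89 FPKM in H2O floxed livers, and its interaction of -1.19 ± 0.46 was not called (adjusted p = 0.0776), while without injured KO replicate 2 it was -1.54 (adjusted p = 0.0421). Serpina3c, a protease inhibitor with close paralogs, had 2.06 and 2.23 FPKM in injured KO and 0.0212 and 0.123 FPKM in H2O KO livers, against 25.9 and 35.4 FPKM in injured floxed and 0.0638 and 0 FPKM in H2O floxed livers (interaction -3.37 ± 0.24, adjusted p = 0.000661). Reg3b, a secreted lectin of regenerating epithelia tested only through injured floxed livers, was at 0 or 0.0411 FPKM in injured KO livers against 3.81 and 11.4 FPKM in injured floxed livers, and its interaction was -2.95 ± 0.53 (adjusted p = 0.00575).

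With all 8 libraries, the called interactions among chaperones and degradation factors of the endoplasmic reticulum were mostly negative. Of 19 tested genes of the unfolded protein response and the integrated stress response, 8 had a negative interaction (Hspa5, Hsp90b1, Dnajb9, Herpud1, Edem1, Sdf2l1, Creld2 and Pdia4) and 1 a positive one (Ppp1r15a). Without injured KO replicate 1, the list had 4 positive and 5 negative calls, with a median of -0.27 against -0.91 with all libraries. The negative calls numbered 5 without H2O KO replicate 2, injured floxed replicate 2 or H2O floxed replicate 1, and 4 without injured floxed replicate 1 or without the filter on low values. Genes of the integrated stress response, such as Ddit3, Atf4, Trib3, Chac1 and Asns, were not called with all libraries. Hsp90b1, a chaperone of the endoplasmic reticulum, had 118 and 149 FPKM in injured KO and 158 and 175 FPKM in H2O KO livers, against 628 and 649 FPKM in injured floxed and 140.3 and 199 FPKM in H2O floxed livers. Injured floxed livers stood far above the other 3 groups, and the interaction was -2.26 ± 0.32 (adjusted p = 0.00289). Dnajb9, a co-chaperone, had 15.3 and 26.6 FPKM in injured KO and 6.9 and 11.9 FPKM in H2O KO livers, against 157 and 115 FPKM in injured floxed and 5.78 and 10.51 FPKM in H2O floxed livers, and an interaction of -2.87 ± 0.53 (adjusted p = 0.00639). Hyou1, a chaperone induced by low oxygen, had 19.5 and 25.5 FPKM in injured KO and 17.5 and 31.7 FPKM in H2O KO livers, against 152 and 146 FPKM in injured floxed and 14.8 and 32.6 FPKM in H2O floxed livers. The values of H2O livers overlapped between genotypes, and the interaction was -2.78 ± 0.55 (adjusted p = 0.00798). Syvn1, the ligase that marks misfolded proteins for degradation, had -2.95 ± 0.55 (adjusted p = 0.00648).

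The ER stress response element, CCAAT and CCACG spaced by 9 bases on either strand, was held by 3 of 19 promoters of this list (15.8%), against 0.184% of the tested genes and 0.113% of all windows. Those of Hsp90b1 (chr10:86705445-86705694, minus strand) and Hspa5, the master chaperone BiP (chr2:34771890-34772089, plus strand), are shown from RefSeq on GRCm38.p6, with the elements in capitals.
Hsp90b1: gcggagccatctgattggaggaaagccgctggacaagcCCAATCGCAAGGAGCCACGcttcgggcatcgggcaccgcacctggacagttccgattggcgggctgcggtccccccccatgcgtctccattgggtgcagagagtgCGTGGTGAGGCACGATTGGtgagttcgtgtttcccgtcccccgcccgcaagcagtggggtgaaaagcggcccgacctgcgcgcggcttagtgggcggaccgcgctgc
Hspa5: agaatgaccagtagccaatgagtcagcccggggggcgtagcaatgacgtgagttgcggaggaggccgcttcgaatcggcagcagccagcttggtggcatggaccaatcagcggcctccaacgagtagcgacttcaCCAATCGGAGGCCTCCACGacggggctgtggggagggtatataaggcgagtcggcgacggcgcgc

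Targets of p53 and regulators of apoptosis were called at shares near those of all tested genes. Of 24 tested, 6 were positive (Pmaip1, Gadd45b, Bcl2l11, Bcl2a1d, Bcl2a1b and Bid) and 5 negative (Ccng1, Tnfrsf10b, Phlda3, Eda2r and Zmat3), or 25% and 20.8% beside 20.9% and 15.1% over all tested genes. The negative calls numbered 3 by voom, and with a mean of at least 5 FPKM 1 of 14 tested was positive and 1 negative. Of the 24, 3 (Pmaip1, Bcl2l11 and Bcl2a1b) were tested only through injured KO livers and 3 only through injured floxed livers. Ccng1, cyclin G1, had 5.76 and 6.97 FPKM in injured KO and 4.58 and 5.31 FPKM in H2O KO livers, against 59.1 and 57.1 FPKM in injured floxed and 5.44 and 5.72 FPKM in H2O floxed livers. The injured floxed values stood alone, the 6 others shared 1 low range, and the interaction was -2.86 ± 0.21 (adjusted p = 0.000661). Cdkn1a, the cell cycle inhibitor p21, had 69.3 and 70.2 FPKM in injured KO and 2.71 and 2.63 FPKM in H2O KO livers, against 112 and 112 FPKM in injured floxed and 4.17 and 2.63 FPKM in H2O floxed livers, an interaction of -0.43 ± 0.27 (adjusted p = 0.236; 95% interval -1.05 to 0.18; called at -0.96 with quantile normalisation, adjusted p = 0.0297). Slc13a5, the citrate importer of hepatocytes, was tested only through injured floxed livers and had 0.4 and 1.98 FPKM in injured KO and 0.247 and 0.154 FPKM in H2O KO livers, against 24.1 and 21.8 FPKM in injured floxed and 0.543 and 0.501 FPKM in H2O floxed livers. It had a called rise in floxed livers alone, for an interaction of -3.21 ± 0.43 (adjusted p = 0.00237). Nnmt, which methylates nicotinamide, rose in both and less in KO livers, with -2.52 ± 0.36 (adjusted p = 0.00279).

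**Figure D3:**
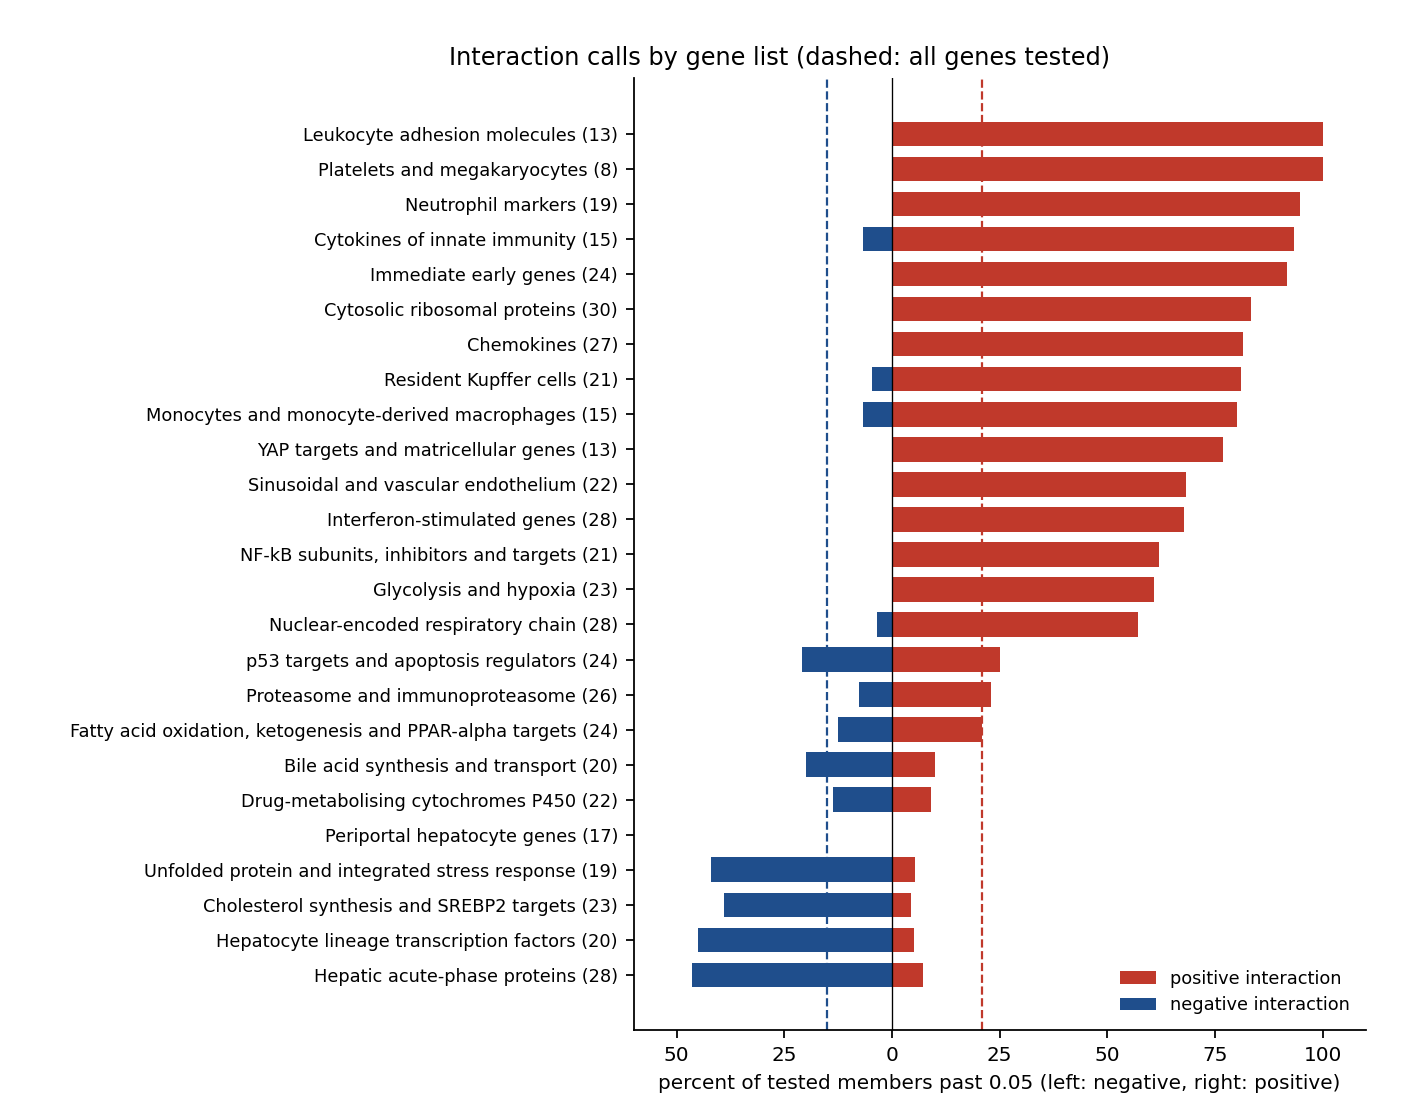
The share of tested members with a positive and with a negative interaction for 25 gene lists, in percent, with dashed lines at 20.9% and 15.1%, the shares over all tested genes. Chemokines, immediate early genes and leukocyte lists lie far to the positive side, and acute-phase, cholesterol synthesis and hepatocyte transcription factor lists to the negative side.

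Neutrophil markers were positive for 18 of 19 tested genes, and for 9 of 19 by limma with voom. Of the 19, 5 were tested only through injured KO livers, all 5 of them positive. Their defining markers summed to 939.7 and 974 FPKM in injured KO and 5.99 and 4.56 FPKM in H2O KO livers, against 94.9 and 159.6 FPKM in injured floxed and 8.8 and 5.47 FPKM in H2O floxed livers. S100a8, a calgranulin of neutrophils, had 179 and 224 FPKM in injured KO and 0.608 and 0.392 FPKM in H2O KO livers, against 19.8 and 33.7 FPKM in injured floxed and 1.084 and 0.492 FPKM in H2O floxed livers, and rose in both genotypes, with an interaction of 3.14 ± 0.39 (adjusted p = 0.00192). Monocyte and macrophage genes were positive for 12 and negative for 1 of 15 tested of 23, the negative being Fn1, which hepatocytes also make. Their defining markers, Fn1 among them, summed to 87.2 and 108 FPKM in injured KO and 56.5 and 71.5 FPKM in H2O KO livers, against 230.4 and 229.8 FPKM in injured floxed and 66.5 and 72.1 FPKM in H2O floxed livers, and this sum was highest in injured floxed livers. Under injury the KO minus floxed difference was -1.98 for Fn1. It was 1.68 for Ly6c2, 1.09 for Itgam and 1.76 for Chil3, the other defining markers tested, so these did not follow the sum. Ly6c2, the marker of inflammatory monocytes, had 8.55 and 11.7 FPKM in injured KO and 0.171 and 0.139 FPKM in H2O KO livers, against 2.08 and 2.83 FPKM in injured floxed and 0.532 and 0.81 FPKM in H2O floxed livers (interaction 2.21 ± 0.26, adjusted p = 0.00176), and Nos2, the inducible nitric oxide synthase and the 1 member tested only through injured KO livers, had 2.74 ± 0.28 (adjusted p = 0.00123).

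Genes of Kupffer cells, the resident macrophages of the liver, moved in opposite directions in part: 12 of 21 rose and 3 fell in KO livers, and 2 rose and 13 fell in floxed livers, with 5 in the opposite class. The interaction was positive for 17 and negative for 1, C6, a complement gene. Without the filter on low values it was positive for 12 and negative for 0. The 5 defining markers summed to 275 and 131 FPKM in injured KO and 66.8 and 66.9 FPKM in H2O KO livers, against 28.9 and 47.0 FPKM in injured floxed and 153 and 109 FPKM in H2O floxed livers. H2O KO livers were thus below H2O floxed livers, and the median KO minus floxed difference was 1.19 under injury and -0.62 under H2O. Marco alone gave 180.5 and 79.3 FPKM of the injured KO sums. Of the other defining markers, Timd4 rose in KO livers, while Clec4f, Vsig4 and Cd5l had no called response there. Clec4f, a lectin restricted to Kupffer cells, had 59.4 and 28.3 FPKM in injured KO and 35.2 and 29.9 FPKM in H2O KO livers, against 6.8 and 8.89 FPKM in injured floxed and 73.8 and 46.8 FPKM in H2O floxed livers. It fell in floxed livers, the KO response was not called, and the interaction was 3.10 ± 0.51 (adjusted p = 0.00433). Marco, a scavenger receptor, had 180.5 and 79.3 FPKM in injured KO and 2.19 and 2.12 FPKM in H2O KO livers, against 13.6 and 26.7 FPKM in injured floxed and 13.3 and 7.43 FPKM in H2O floxed livers, and an interaction of 4.39 ± 0.64 (adjusted p = 0.00296). Timd4, a receptor for dying cells on resident macrophages, had 2.20 ± 0.28 (adjusted p = 0.00205), rising in KO and falling in floxed livers. The part of these marker sums, and of those of the other cell types, in the interactions was not tested.

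**Figure D4:**
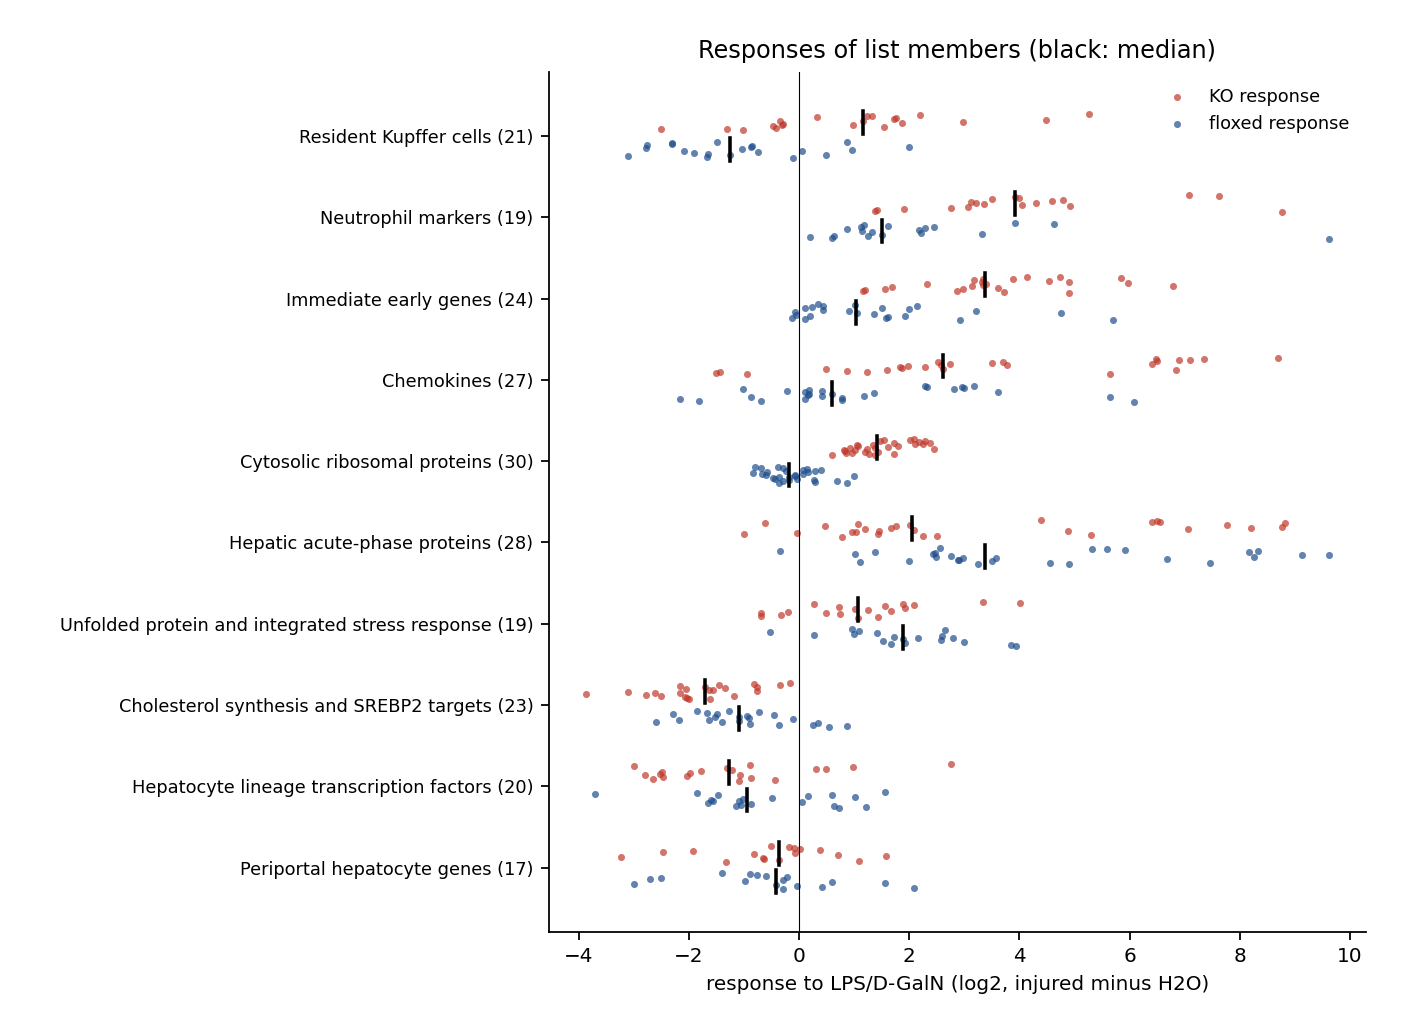
The KO response above the floxed response, as log2(FPKM + 1) differences between injured and H2O livers, for the tested members of 10 gene lists, with each point a gene. Kupffer cell genes lie mostly above 0 in KO livers and below 0 in floxed livers, and acute-phase genes lie mostly above 0 in both.

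Endothelial genes were positive for 15 of 22 tested and negative for none, and 10 were positive without the filter on low values. Of the 22, 1 was tested only through injured KO livers. The defining markers of endothelium summed to 81.7 and 49.3 FPKM in injured KO and 25.4 and 23.2 FPKM in H2O KO livers, against 10.4 and 13.4 FPKM in injured floxed and 30.3 and 28.1 FPKM in H2O floxed livers. Cdh5, the cadherin of endothelial junctions, had 57.9 and 36.9 FPKM in injured KO and 3.145 and 2.99 FPKM in H2O KO livers, against 5.14 and 7.41 FPKM in injured floxed and 5.2 and 5.03 FPKM in H2O floxed livers, with an interaction of 3.31 ± 0.33 (adjusted p = 0.00123). Cdh5 thus made up most of the injured KO sums. Of the other defining markers, Clec4g and Pecam1 had a positive interaction, while Stab2 and Kdr fell in both genotypes without a called interaction. All 13 tested leukocyte adhesion molecules of 16 were positive, with a median of 2.07, and 1 of the 13, Sele, was tested only through injured KO livers. Platelet genes, 5 of 8 tested only through injured KO livers, were positive for all 8, or for 3 without the filter on low values. The count of 8 thus follows in part from the filter. Platelet markers summed to 61.6 and 18.2 FPKM in injured KO and 2.05 and 2.3 FPKM in H2O KO livers, against 2.61 and 3.12 FPKM in injured floxed and 3.1 and 3.84 FPKM in H2O floxed livers. Erythroid markers summed to 26160 and 3741 FPKM in injured KO and 171 and 244 FPKM in H2O KO livers, against 84.5 and 90.0 FPKM in injured floxed and 323 and 247 FPKM in H2O floxed livers, and this sum was highest in injured KO replicate 1. Ccn2, a target of YAP, had 40.5 and 23.6 FPKM in injured KO and 0.459 and 0.513 FPKM in H2O KO livers, against 4.3 and 4.91 FPKM in injured floxed and 0.888 and 1.3 FPKM in H2O floxed livers (interaction 2.999 ± 0.34, adjusted p = 0.00154), and 10 of 13 tested YAP targets and matricellular genes were positive, 2 of the 13 being tested only through injured KO livers. Hmox1, which degrades haem, had 185 and 121 FPKM in injured KO and 4.77 and 6.93 FPKM in H2O KO livers, against 37.0 and 42.0 FPKM in injured floxed and 9.27 and 9.04 FPKM in H2O floxed livers, and an interaction of 2.49 ± 0.34 (adjusted p = 0.00258). Igkc, the kappa chain of plasma cells, had 26.0 and 23.5 FPKM in injured KO and 32.9 and 23.7 FPKM in H2O KO livers, against 3.56 and 5.1 FPKM in injured floxed and 99.1 and 38.5 FPKM in H2O floxed livers. It fell in floxed livers alone by call, for 3.40 ± 0.57 (adjusted p = 0.00458). Of 8 tested MHC class II genes, 1 of them only through injured KO livers, 7 were positive, among them Cd74, the invariant chain, at 1.74 ± 0.30 (adjusted p = 0.00494).

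Hepatocyte genes differed in both directions. Cholesterol synthesis was positive for 1 and negative for 9 of 23. Sqle, squalene epoxidase, had 1.53 and 1.48 FPKM in injured KO and 8.29 and 9.87 FPKM in H2O KO livers, against 14.8 and 14.4 FPKM in injured floxed and 7.73 and 12.3 FPKM in H2O floxed livers, and an interaction of -2.54 ± 0.29 (adjusted p = 0.00159). Idi1, an isomerase of the same pathway, had -2.50 ± 0.38 (adjusted p = 0.00339). Hepatocyte transcription factors were positive for 1 and negative for 9 of 20, and the negative calls numbered 5 without injured floxed replicate 2 or without H2O floxed replicate 1, and 4 without the filter on low values. Of these 20 factors, 1 was tested only through injured KO livers and 1 only through injured floxed livers. The shares over all tested genes were 20.9% positive and 15.1% negative. Ppara, the receptor that drives fat oxidation, had 1.6 and 1.62 FPKM in injured KO and 16.9 and 13.8 FPKM in H2O KO livers, against 5.42 and 6.53 FPKM in injured floxed and 12.96 and 15.9 FPKM in H2O floxed livers. It fell in both genotypes and more in KO livers, with an interaction of -1.50 ± 0.24 (adjusted p = 0.00388). Nudt7, a peroxisomal hydrolase of coenzyme A, had 17.7 and 15.6 FPKM in injured KO and 110.0 and 157 FPKM in H2O KO livers, against 131 and 132 FPKM in injured floxed and 111 and 139 FPKM in H2O floxed livers. Injured KO livers were alone in being low (interaction -2.996 ± 0.31, adjusted p = 0.00127). Deeper falls in KO livers were also called for Glyctk, glycerate kinase, at -2.59 ± 0.34 (adjusted p = 0.00216), and the adaptor Grb7 at -2.41 ± 0.34 (adjusted p = 0.00283).

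Other hepatocyte genes fell less in KO livers. Elovl3, a fatty acid elongase, had 141 and 105.4 FPKM in injured KO and 211 and 303 FPKM in H2O KO livers, against 13.7 and 10.7 FPKM in injured floxed and 193 and 289 FPKM in H2O floxed livers. It fell in both and more in floxed livers, for an interaction of 3.13 ± 0.41 (adjusted p = 0.00217). Aqp8, a water channel of the bile canaliculus, had 31.4 and 21.6 FPKM in injured KO and 133 and 127 FPKM in H2O KO livers, against 3.76 and 4.21 FPKM in injured floxed and 164 and 127 FPKM in H2O floxed livers (interaction 2.59 ± 0.31, adjusted p = 0.00178). Cyp8b1, which sets the share of cholic acid, had 2.08 ± 0.38 (adjusted p = 0.0062). G0s2, an inhibitor of the fat lipase, had 91.4 and 22.3 FPKM in injured KO and 111 and 123 FPKM in H2O KO livers, against 1.29 and 2.19 FPKM in injured floxed and 102 and 136 FPKM in H2O floxed livers, and the 2 injured KO values lay far apart (interaction 4.11 ± 0.78, adjusted p = 0.00699). Prodh2, hydroxyproline dehydrogenase, had 162 and 119 FPKM in injured KO and 193 and 166 FPKM in H2O KO livers, against 15.6 and 17.9 FPKM in injured floxed and 163 and 181 FPKM in H2O floxed livers. Its floxed values alone were low after injury, and the interaction was 2.92 ± 0.30 (adjusted p = 0.00123).

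For other genes no interaction was called. Cyp7a1, which opens the classical route of bile acid synthesis and limits its rate, had 0.164 and 0.247 FPKM in injured KO and 24.1 and 41.5 FPKM in H2O KO livers, against 0.172 and 0.102 FPKM in injured floxed and 30.2 and 28.5 FPKM in H2O floxed livers. It fell in both, and the interaction of -0.02 ± 0.33 (adjusted p = 0.964) had a 95% interval of -0.78 to 0.73. Alb, serum albumin, had 20030 and 22270 FPKM in injured KO and 18280 and 27310 FPKM in H2O KO livers, against 20860 and 20940 FPKM in injured floxed and 26030 and 24900 FPKM in H2O floxed livers, with an interaction of 0.20 ± 0.36 and an interval of -0.63 to 1.03. Cps1, the entry enzyme of the urea cycle, had -0.60 ± 0.42 (interval -1.58 to 0.39; called at -1.08 without H2O KO replicate 1, adjusted p = 0.0232), and Cyp2e1, a pericentral cytochrome P450, -0.54 ± 0.41 (interval -1.49 to 0.41). None of 17 tested periportal genes and none of 8 tested proliferation genes of 20 listed was called, where 36.0% of all tested genes were. Of the periportal genes, 2 were called negative with quantile normalisation, by voom or with a trend on gene length removed. With a replicate block or a mean of at least 5 FPKM, 1 was called negative. By voom, 1 proliferation gene was called positive. An interaction that misses the threshold does not show that the responses were equal.

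Nuclear-encoded genes of the ribosome and the respiratory chain mostly had a higher response in KO livers. Of the 80 tested genes named Rpl or Rps, 69 had a positive interaction and 0 a negative one, with a median of 1.65. In KO livers 76 rose, and in floxed livers 5 rose and 18 fell, where 38.8% of all tested genes fell. The count was 53 without injured floxed replicate 1, and 62 positive with 1 negative when all libraries were set to 1 common distribution. Rps18, of the small subunit, had 236 and 178 FPKM in injured KO and 68.1 and 79.8 FPKM in H2O KO livers, against 43.6 and 54.4 FPKM in injured floxed and 83.8 and 75.2 FPKM in H2O floxed livers. Its injured KO values were above all others, and the interaction was 2.16 ± 0.30 (adjusted p = 0.00269). Of 94 tested genes named Nduf, Cox, Uqcr or Atp5, 61 were positive and 4 negative, and 42 were positive without injured floxed replicate 1. Cox4i1, a subunit of cytochrome oxidase, had 359.8 and 281 FPKM in injured KO and 150.0 and 192 FPKM in H2O KO livers, against 93.6 and 105.3 FPKM in injured floxed and 170.1 and 184 FPKM in H2O floxed livers (interaction 1.73 ± 0.30, adjusted p = 0.00536). Of the 13 mitochondrially encoded protein genes, 1 was positive (7.69%) and 0 negative. Their median interaction was 0.50, and it was 0.91 without H2O KO replicate 1 and -0.01 without H2O KO replicate 2. Of 245 tested genes named Zfp, 8 were positive and 68 negative, and the negative calls numbered 40 without injured KO replicate 1, 37 without H2O KO replicate 1, 29 and 44 without injured floxed replicates 1 and 2, and 37 and 34 without H2O floxed replicates 1 and 2. They numbered 30 without the filter on low values and 105 by voom. Over all tested genes 20.9% were positive and 15.1% negative, and all negative calls numbered 1224 without the filter and 2438 by voom.

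These families differ in gene length, and the calls moved with length. The median exon length was 2588 bases for positive and 4920.5 bases for negative calls, against 3509 bases over all tested genes. Over 10 bins of length, the share of positive calls lay between 35.8% in bin 2 and 10% in bin 10, and the share of negative calls between 6.6% in bin 2 and 24.9% in bin 9. With a smooth trend on length removed from each library, the shares were 14.5% to 25.9% positive and at most 17.8% negative. Then 66 Rpl and Rps genes were positive and 1 negative, and 10 Zfp genes were positive and 56 negative. Of 10935 tested protein-coding genes 21.8% were positive and 16.8% negative, of 709 processed pseudogenes 25.1% and 6.9%, and of 1002 lncRNAs 16.1% and 9.4%. Processed pseudogenes can share reads with their parent genes. The part of RNA quality in the length trend was not tested.

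**Figure D5:**
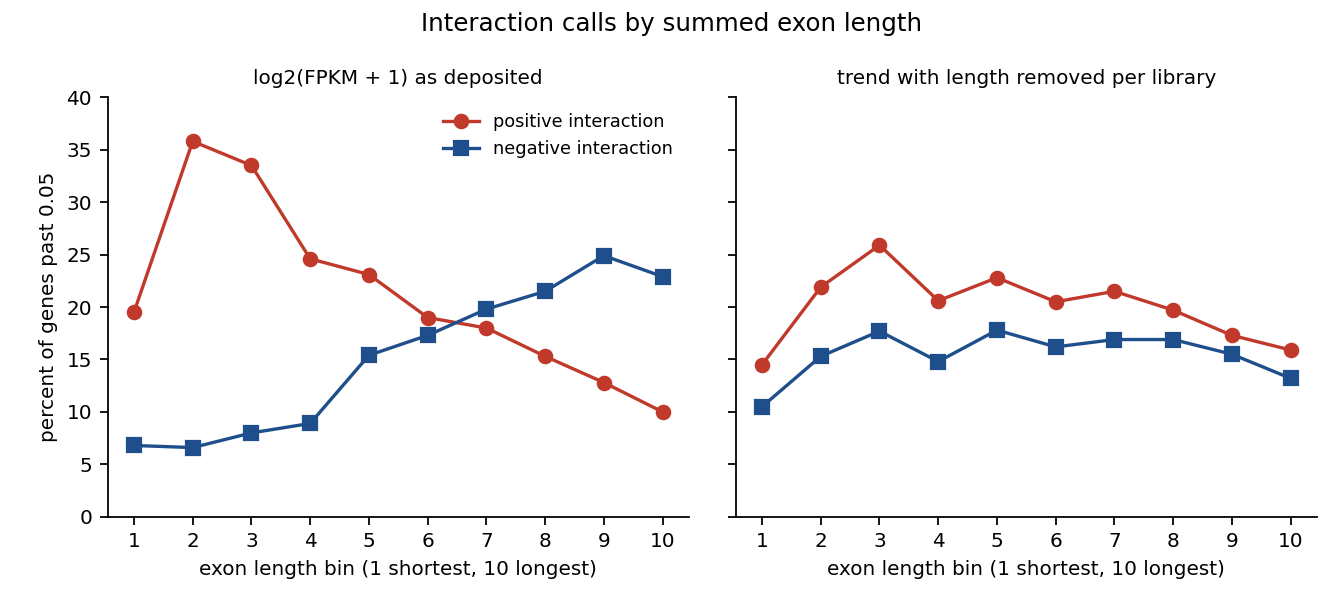
The share of genes with a positive and a negative interaction, in percent, over 10 bins of exon length from short to long, before and after a trend on length was removed from each library. Before removal the positive share falls from bin 2 to bin 10, with bin 1 at 19.5%, and long genes are more often negative than short ones; the spread over bins is narrower after it.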

How the data were processed

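RNA of 8 liver samples, in 4 groups of 2, was sequenced. The authors deposited 1 table of FPKM values per gene. The submitters' processing notes name DESeq2 3.15 and GRCm39, while aligner, counter and gene annotation remain not given in the sources used here. FPKM is a share of each library, so a gene's value moves when others change. Among values above 0 in genes with an exon length, 98.13% to 98.43% per library were whole fragments, within a tolerance of 0.01. Low genes carry few fragments, and fold changes on log2(FPKM + 1) understate their change.

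Genes with FPKM of at least 1 in at least 2 of the 8 libraries were fitted together with limma 3.58.1 (R 4.3.3) with a mean-variance trend, with 4 residual degrees of freedom and no replicate block, and p-values were adjusted by Benjamini and Hochberg over all tested genes at 0.05. The fit was tested on simulated data. A count model was not the main test, since the table holds no counts. Python 3.11.15 (pandas 2.3.3, numpy 2.4.6, matplotlib 3.10.9) built the summaries and plots. Exon lengths came from GENCODE M21 and promoters from RefSeq GRCm38.p6, and no coordinates of the authors' build are given. The text draws on Glul and Lyz2, the largest interactions, the largest responses of the opposite classes, the largest interactions of the other classes, the members of each list with the smallest p, a panel of liver genes and strongly responding genes with an interval between -1 and 1; other list members are named with their call alone. Members and lists were chosen with earlier results of these data known. Strand-specific counting is not stated, and Cxcl10, Syvn1, Nr1d1, Cox4i1 and Rps18 overlap a gene on the other strand. Alternatives are described in the closing section. A further gene that the rule selects among the opposite classes is not reported here. Libraries were not dropped or imputed.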

Additional observations from a re-analysis of the deposited data

Results flagged for a closer look

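Responses that opposed each other between genotypes were singled out. They comprised 339 genes that rose in KO livers and fell in floxed livers, and 266 genes that fell in KO livers and rose in floxed livers, each with a called interaction. Among those that rose in KO livers, the interaction was 7.71 for Hba-a1, 7.98 for Hbb-bs, 5.01 for Ifi27l2a, 3.63 for Enho, 3.69 for C1qb, 3.21 for Myl9, 3.17 for Fcna and 2.73 for Ifi30. Among those that fell in KO livers, it was -5.95 for Gtpbp4-ps1, -4.60 for B3galt1, -3.21 for Cldn2, -3.33 for Mir199a-1, -3.01 for Tspyl2, -2.72 for Baat and -2.14 for Aaas. The difference itself was tested by the interaction. No call of these named genes changed under the alternatives in which they were tested; Myl9 and Mir199a-1 were not tested with a mean of at least 5 FPKM.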

How the results depend on the processing

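The counts of 4940 called interactions, 2871 positive, 2069 negative, 339 opposite with KO up and 266 opposite with KO down kept within 1.5 times under median centring, without mitochondrial and haemoglobin genes, array weights, a robust fit, a pseudocount of 0.1, voom and length removal (chosen after seeing the data). Without the filter on low values there were 1224 negative, 170 and 149 opposite. With a mean of at least 5 FPKM there were 2440 called, 1475 positive, 965 negative, 209 and 119 opposite. Quantile normalization gave 205 opposite with KO up. Leaving out 1 library at a time gave 2997 to 5019 called, 1867 to 3089 positive, 1130 to 1930 negative, 136 to 474 and 127 to 261 opposite. The share of calls that were positive was 58.1%, and 48.1% under quantile normalization, 66.4% without the filter and 54.7% under median centring. No interaction of a named gene reversed; of 327 named genes with a call, 67 lost it without the filter, 22 with length removal, 20 with quantile normalization, at most 11 in the other settings with all libraries (where, with a mean of at least 5 FPKM, all but the 244 that kept it were not tested, nor were 2 by voom and 2 with length removal), and 20 to 56 with 1 library left out.

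With a replicate block the counts were 4616 called, 2720 positive, 1896 negative, 307 and 241 opposite. Deviations from the group mean correlated at -0.104 to 0.27 between samples with the same number. With 2 libraries per group, this cannot settle whether the numbers pair the samples. With 2 libraries per group and 4 residual degrees of freedom, small interactions were not detectable, and genes near 1 FPKM rest on few fragments.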
